A study of Mus musculus with 25 samples.

Results

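The regulator genes Nfe2l2 and Keap1, the glutathione genes Gclc, Gclm, Gss and Gsr, the thioredoxin system genes Txn1, Txnrd1 and Srxn1, and the haem oxygenase gene Hmox1 are 10 of the 25006 entries of a table of mouse tumour RNA. They were found by symbol, each symbol had 1 row, and all 10 were among the 12262 genes tested. They were chosen with earlier results of the same comparison known, so their differences are given as a description with no test, and their number on either side supports nothing. The libraries came from C57BL/6 mice bearing tumours of E0771, a mammary carcinoma line of that strain. The anti-CD73 mice received an antibody against CD73 every 3 days (3 libraries), and the others are labelled as controls with no further treatment named (3 libraries). CD73 is the cell-surface enzyme that forms adenosine from AMP. Both groups are labelled as CD8+ T cells enriched from tumour tissue, with no ages given, and replicate numbers are not tied to separate animals, so p-values measure only the spread between these libraries, which may be technical. Another 19 samples, made from spleen CD8+ T cells (15 for RNA and 4 for ATAC-seq), were not analysed here.

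NRF2, encoded by Nfe2l2, is a transcription factor that turns on genes against oxidants and electrophiles. KEAP1 holds NRF2 in the cytoplasm and hands it to the CUL3 ubiquitin ligase for breakdown, until its reactive cysteines are modified. Once in the nucleus, NRF2 pairs with a small MAF protein on antioxidant response elements, which BACH1 can also occupy as a repressor. Many of its targets feed the glutathione and thioredoxin systems, which reduce peroxides and oxidised proteins and keep lipid peroxidation in check.

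The libraries held between 10180624 and 17161679 recovered reads in genes. Genes that define T cells were scarce: the 8 of 11 T cell markers found in the table took 0.00217 to 0.00418% of the reads after anti-CD73 and 0.00104 to 0.00431% in the controls, with none at 0 in any library. The 11 macrophage markers took 0.0901 to 0.165% after anti-CD73 and 0.0533 to 0.104% in the controls. Neutrophil markers took 0.0720 to 0.128% after anti-CD73 and 0.0462 to 0.0625% in the controls. The 6 erythroid markers found in the table took 0.0682 to 0.252% after anti-CD73 and 0.0603 to 0.457% in the controls. Epithelial markers took 0.0173 to 0.0219% after anti-CD73 and 0.0151 to 0.0363% in the controls, and fibroblast markers 0.0384 to 0.0444% after anti-CD73 and 0.0297 to 0.0368% in the controls. Dendritic cell markers took 0.0174 to 0.0398% after anti-CD73 and 0.00609 to 0.0297% in the controls. Control replicate 1 stood apart: its log2 distance to the average of the other controls had an SD of 0.75 across the tested genes, against 0.35 for control replicate 2 minus control replicate 3. Its T cell share was 0.00431% (0.00104 and 0.00145% in control replicates 2 and 3) and its macrophage share 0.104% (0.0611 and 0.0533%). Its dendritic share was 0.0297% (0.00675 and 0.00609%) and its erythroid share 0.0603% (0.431 and 0.457%). Its neutrophil and epithelial shares lay below theirs and its fibroblast share between them. With all 6 libraries, every anti-CD73 library already lay above every control in the neutrophil and fibroblast shares. Without control replicate 1, every anti-CD73 library lay above both other controls in each share except the erythroid and epithelial ones, where all lay below. Control replicate 1 lay outside the range of the other controls for 9 of the 10 genes, above in 5 and below in 4. For Gsr it differed from their mean by only -0.073 on the log2 scale. The share of all tested genes outside that range was not counted, so nothing is read from this number. Values without control replicate 1 are given for the 10 genes beside those of all 6 libraries, and for other genes and list medians where they differ by over 1.5 times. The fits with and without control replicate 1 both compare libraries that also differ in the marker shares above. That library was singled out by its distance from the other controls, so leaving it out narrows the control spread by choice. SEs, adjusted p-values and calls of the fit without it are to be read with this limit. In mixed material of this kind, fewer cells of a type and less RNA per cell cannot be told apart.

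Start regions are shown for the genes whose window held the core of an antioxidant response element, since NRF2 acts through that element. RefSeq windows in GRCm38.p6, from 250 bases before to 50 after an annotated start, were found for 7 of the 10 genes, with 3 windows for Txnrd1, and the genes with no window were Gclc, Gsr and Hmox1. The core was searched on both strands as TGACNNNGC and as TGAGNNNGC, and the AP-1 core as TGANTCA, which can share letters with either form. Of the 9 windows, 4 held the first form, against 12.4% of all 32851 windows, and those were 1 each of Nfe2l2, Gclm, Txnrd1 and Srxn1. The same 4 were the windows with either form, against 27.8% of all windows. Only the Srxn1 window of the 9 held the second form (17.6% of all windows) and the AP-1 core (7.81% of all windows). The windows of Keap1, Gss and Txn1 held none of the 3 patterns, which says only that these letters are not in those windows. The stretches below lie upstream of the start, read 5′ to 3′ along the gene, and have every match in capitals. They are chr2:75704869-75704913 (minus strand) for Nfe2l2, chr3:122245397-122245457 (plus) for Gclm, chr10:82859088-82859148 (plus) for Txnrd1 and chr2:152105356-152105497 (plus) for Srxn1.
Nfe2l2: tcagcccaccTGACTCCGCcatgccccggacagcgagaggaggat
Gclm: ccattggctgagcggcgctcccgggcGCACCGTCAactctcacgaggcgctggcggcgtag
Txnrd1: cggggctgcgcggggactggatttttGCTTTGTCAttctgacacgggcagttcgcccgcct
Srxn1: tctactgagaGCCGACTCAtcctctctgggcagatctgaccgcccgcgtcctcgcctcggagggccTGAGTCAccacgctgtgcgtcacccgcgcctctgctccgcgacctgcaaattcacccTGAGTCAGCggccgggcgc
In Gclm and Txnrd1 the match lies on the strand opposite to the gene, and 45 bases upstream of the Srxn1 start the second form and the AP-1 core share letters. The TGACNNNGC match of Srxn1 lies after the start and is not in the printed stretch. The annotated starts of these Gclm and Txnrd1 windows lie inside the gene spans given below, not at their first base. A match describes the letters and is not evidence of binding.

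**Figure D1:**
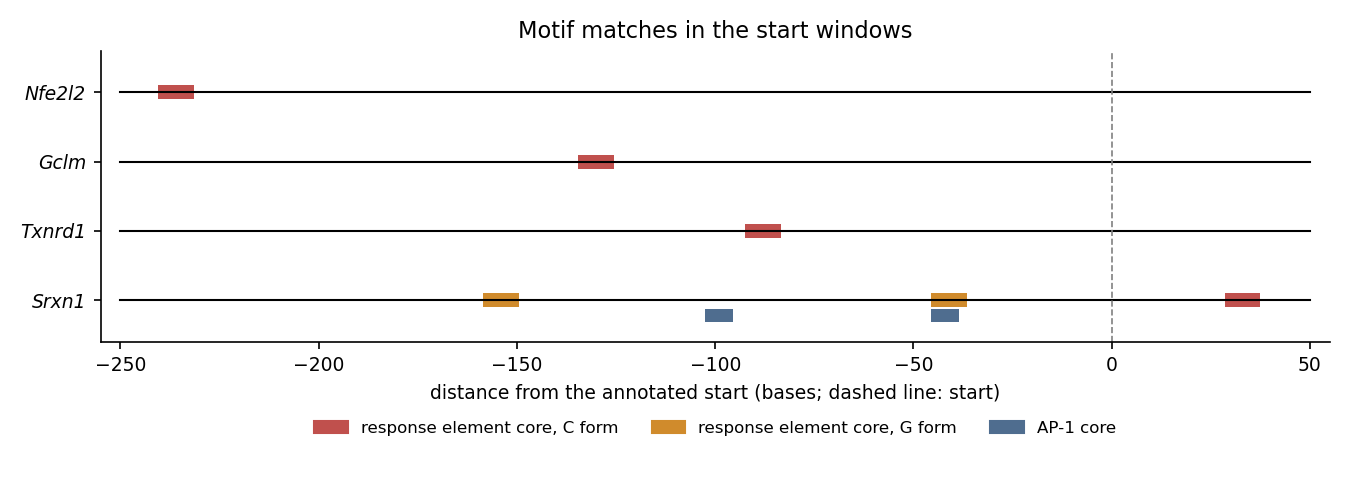
Positions of motif matches in the start windows of the genes that had any; the x axis is the distance in bases from the annotated start, blocks are matches on either strand, and the AP-1 core is drawn just below the line. Matches begin 240 bases upstream in Nfe2l2, 134 in Gclm and 92 in the Txnrd1 window with a match, while Srxn1 has matches beginning 158, 102 and 45 bases upstream and another that begins at base 29 after the start. The starts used for Gclm and Txnrd1 lie inside the gene spans, not at their first base.

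Across the 10 genes, 8 had a negative log2 fold change of anti-CD73 over control and 2 a positive one, with a median of -0.27, against 0.0039 over all 12262 tested genes. Of all tested genes, 49.5% had a negative one. The lowest log2 fold changes were those of Gclc and Gclm, followed by Hmox1 and Txn1, while Keap1, Gss and Gsr had values close to 0 or above it. The groups did not overlap in 5 genes that lay lower (Nfe2l2, Gclc, Gclm, Txn1 and Srxn1) and in 1 that lay higher (Gss), against 12.0% and 11.5% of all tested genes. By limma on log2(normalized count + 1) with Benjamini-Hochberg adjustment, 0 of the 10 passed an adjusted p of 0.05, as did 0% of all tested genes (smallest adjusted p = 0.141, with 1902 genes at an unadjusted p under 0.05). At an unadjusted p under 0.05 there were 3 of the 10, all lower (Gclc, Gclm and Txn1), against 6.82% of all tested genes on that side and 8.69% on the higher side. edgeR on recovered reads also called 0 of the 10 and 0% of all genes, with 1868 at an unadjusted p under 0.05. DESeq2 on the same reads called 592 of 12018 genes with an adjusted p, among them Gclc, Gclm and Txn1, against 2.01% of all genes with an adjusted p on the lower side. Without control replicate 1, limma called 2724 genes and again Gclc, Gclm and Txn1, against 10.3% of all genes lower and 11.9% higher. Since the genes were chosen on this comparison, nothing is read from these counts.

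**Figure D2:**
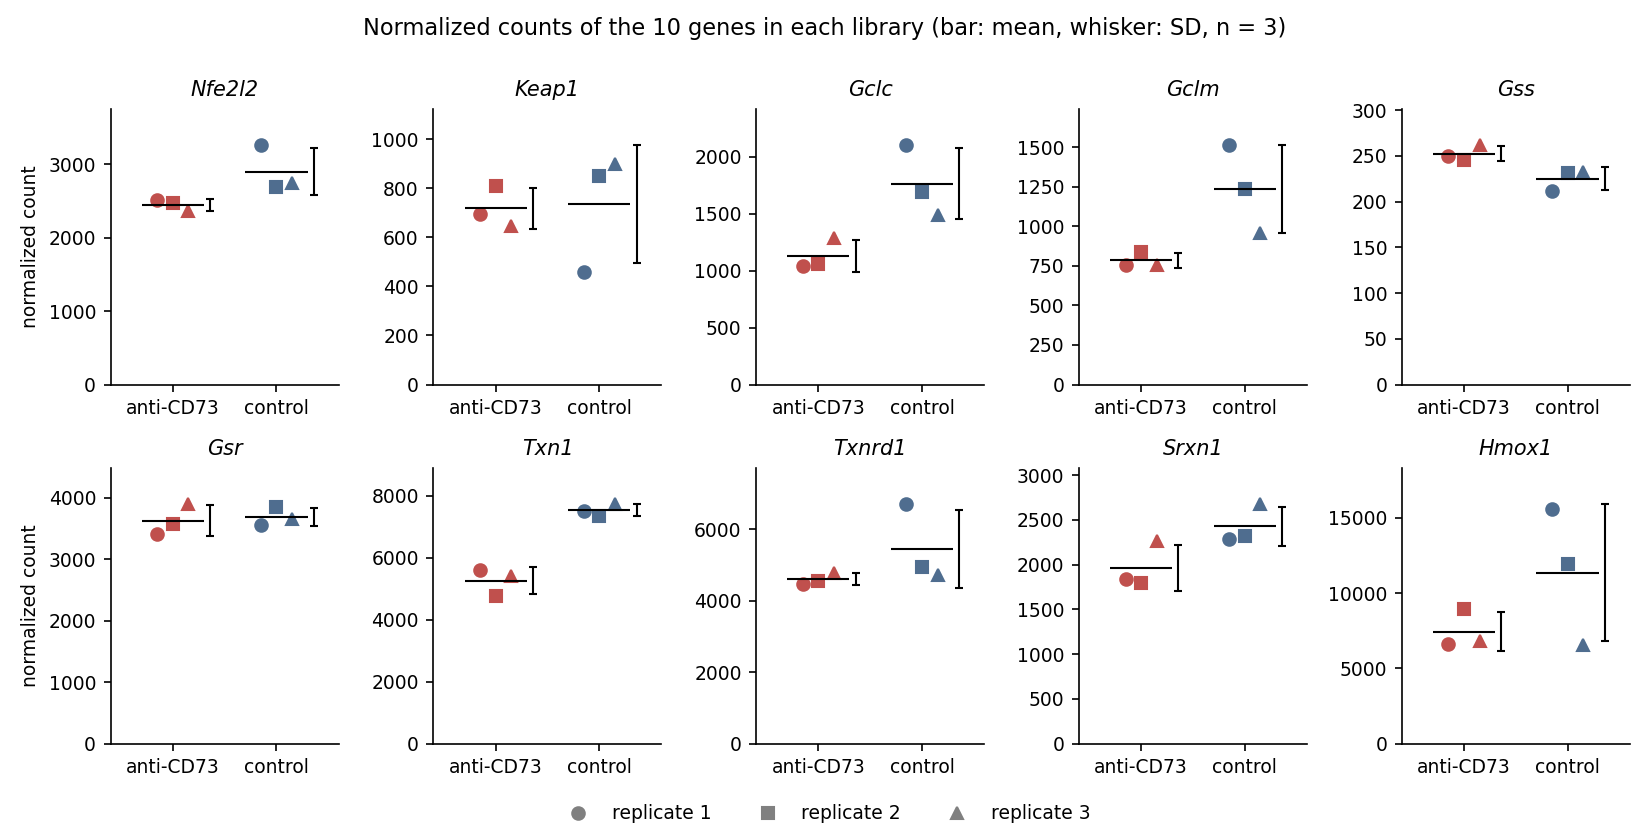
Normalized counts (y axis, from 0) of the 10 genes in the 3 anti-CD73 and 3 control libraries; markers give the replicate, horizontal bars the mean and whiskers the SD (n = 3). Txn1 separates the groups with a narrow control spread (7355 to 7737), while control replicate 1 is the highest library for Hmox1 (15604) and the lowest for Keap1 (458).

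Of the regulator pair, Nfe2l2 lay slightly lower after anti-CD73 and Keap1 had no clear side. Nfe2l2 (ENSMUSG00000015839; chr2:75675513-75704663 in GRCm38.p6) had 2507, 2474 and 2359 normalized counts in anti-CD73 replicates 1, 2 and 3, against 3265, 2686 and 2749 in control replicates 1, 2 and 3. All anti-CD73 libraries lay below all controls, with a log2 fold change of -0.24 (SE 0.11, n = 3 per group) and of -0.15 (SE 0.073) without control replicate 1. Keap1, whose product is the sensor that marks NRF2 for breakdown (ENSMUSG00000003308; chr9:21229730-21239332), had 695, 809 and 648 normalized counts after anti-CD73, against 458, 849 and 899 in the controls. The anti-CD73 values lay between control replicate 1 and the other controls, and the log2 fold change was 0.020 (SE 0.26). Without control replicate 1 it turned to -0.29 (SE 0.11), since the 3 anti-CD73 libraries all lay below control replicates 2 and 3. edgeR and DESeq2 on all 6 libraries gave Keap1 -0.018 and -0.029, so its direction also depended on the tool.

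Glutathione is made in a first step that joins glutamate to cysteine and a second that adds glycine, and the genes of the first step had the lowest log2 fold changes. Gclc encodes the catalytic subunit of glutamate-cysteine ligase, the rate-limiting enzyme of the pathway (ENSMUSG00000032350; chr9:77754535-77794489). It had 1044, 1058 and 1291 normalized counts in the anti-CD73 libraries, against 2107, 1695 and 1493 in the controls. The groups did not overlap, and the gene averaged 1131 ± 138 normalized counts after anti-CD73 and 1765 ± 313 in the controls (SD, n = 3 each), with a log2 fold change of -0.63 (SE 0.16), or 35.6% lower. Gclm encodes the modifier subunit, which makes the ligase more efficient (ENSMUSG00000028124; chr3:122245487-122267215). It had 757, 840 and 758 normalized counts after anti-CD73, against 1513, 1238 and 954 in the controls. These values did not overlap either, with means of 785 ± 47.5 after anti-CD73 and 1235 ± 279 in the controls (SD, n = 3 each) and a log2 fold change of -0.63 (SE 0.18). Both subunit genes ranked near the bottom of all tested genes, with 2.50% of genes below Gclc and 2.58% below Gclm in log2 fold change. In the controls, both were highest in replicate 1 and lowest in replicate 3. Without control replicate 1 the log2 fold changes were -0.50 (SE 0.11) for Gclc and -0.47 (SE 0.12) for Gclm. The number of Gclm counts per Gclc count, compared only between libraries since lengths differ between genes, was 0.725, 0.794 and 0.587 after anti-CD73 and 0.718, 0.730 and 0.639 in the controls. These ratios overlapped between the groups.

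The gene of the second step and the recycling gene had log2 fold changes near 0 or above. Gss, the synthetase of the second step (ENSMUSG00000027610; chr2:155563181-155592810), had 250.1, 246 and 262 normalized counts after anti-CD73, against 211, 232 and 233 in the controls. It was the only one of the 10 genes whose anti-CD73 libraries all lay above the controls, with a log2 fold change of 0.17 (SE 0.13). Gss also had the fewest reads of the set, down to 183 in control replicate 2 (exact 95% Poisson bounds of 157 and 212 reads, for counting error alone). Scaled to normalized counts, the bounds of control replicate 1 (183 and 242) held no anti-CD73 value, those of control replicate 3 (208 and 260.1) all but that of anti-CD73 replicate 3, and those of control replicate 2 (199 and 268) all of them. The log2 fold change of Gss was 0.12 (SE 0.12) without control replicate 1. Gsr encodes the reductase that returns oxidised glutathione to its reduced form with NADPH (ENSMUSG00000031584; chr8:33653238-33698162). It had 3412, 3577 and 3900.3 normalized counts after anti-CD73, against 3562, 3848 and 3649 in the controls. Its groups overlapped fully, with a log2 fold change of -0.024 (SE 0.10) whose sign turned under quantile normalization (0.061) and without control replicate 2 (0.00741) or anti-CD73 replicate 1 (0.020). It was -0.048 (SE 0.082) without control replicate 1.

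**Figure D3:**
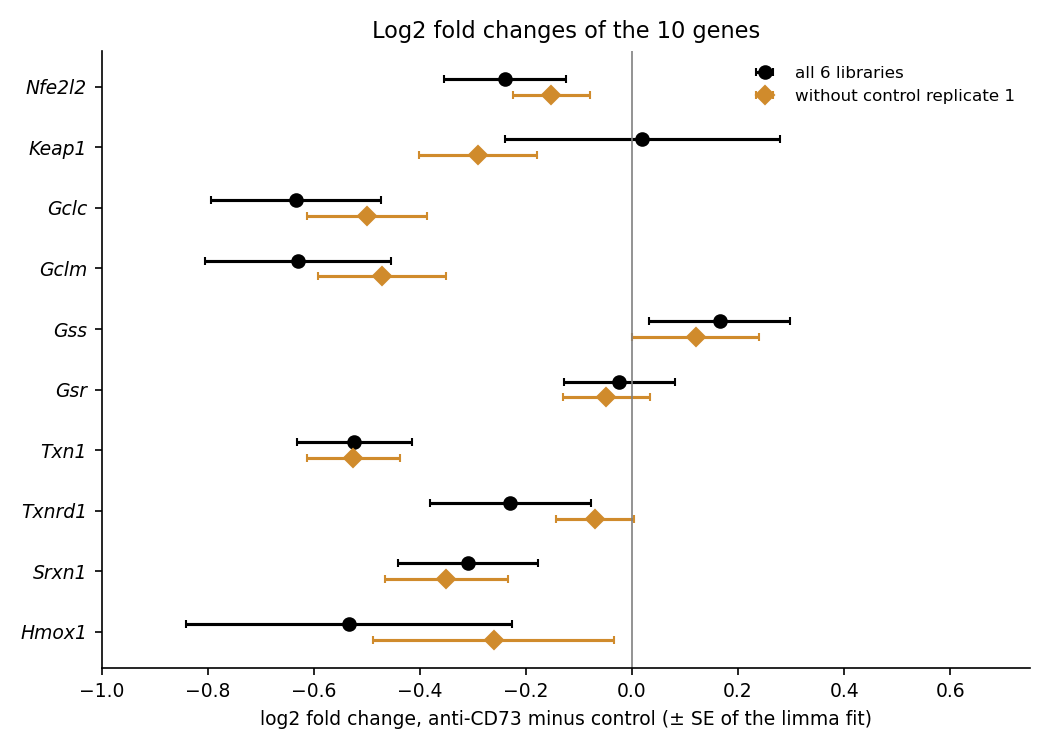
Log2 fold changes of anti-CD73 over control for the 10 genes, with the SE of the limma fit, from all 6 libraries (circles) and without control replicate 1 (diamonds). Txn1 stays at -0.52 and -0.53, whereas Keap1 changes sides (0.020 and -0.29) and Txnrd1 moves to -0.070.

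In the thioredoxin system, Txn1 and Srxn1 lay lower in every anti-CD73 library and Txnrd1 did not separate the groups. Txn1 is the cytosolic thioredoxin, which reduces disulphides in other proteins (ENSMUSG00000028367; chr4:57943373-57956411). It had 5588, 4762 and 5412 normalized counts after anti-CD73, against 7520.1, 7355 and 7737 in the controls. The lowest control lay well above the highest anti-CD73 library, with means of 5254 ± 435 after anti-CD73 and 7537 ± 191 in the controls (SD, n = 3 each) and a log2 fold change of -0.52 (SE 0.11), or 30.4% lower. Control replicate 1 differed from the mean of the other controls by only -0.0045 on the log2 scale for this gene, and the fold change without it was -0.53 (SE 0.088). Leaving out each library in turn gave Txn1 between -0.57 and -0.45.

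Txnrd1, the selenoenzyme that recharges thioredoxin with NADPH (ENSMUSG00000020250; chr10:82833951-82897724), had 4454, 4544 and 4783 normalized counts after anti-CD73, against 6707, 4932 and 4712 in the controls. Control replicate 1 lay far above the rest, control replicate 3 lay inside the anti-CD73 range, and the log2 fold change was -0.23 (SE 0.15), or -0.070 (SE 0.074) without control replicate 1. Srxn1 encodes sulfiredoxin, which repairs overoxidised peroxiredoxins (ENSMUSG00000032802; chr2:152105524-152111376). It had 1838, 1793 and 2263 normalized counts after anti-CD73, against 2288, 2315 and 2678 in the controls. The groups were separated by a narrow gap between anti-CD73 replicate 3 and control replicate 1, with a log2 fold change of -0.31 (SE 0.13) and of -0.35 (SE 0.12) without that control. The number of Txnrd1 counts per Txn1 count was 0.797, 0.954 and 0.884 after anti-CD73 and 0.892, 0.671 and 0.609 in the controls, where control replicate 1 lay within the anti-CD73 range.

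Hmox1 encodes the inducible haem oxygenase, which splits haem into biliverdin, iron and carbon monoxide and is abundant in macrophages that clear red blood cells (ENSMUSG00000005413; chr8:75093618-75100593). It had 6593, 8923 and 6817 normalized counts after anti-CD73, against 15604, 11963 and 6524 in the controls. It was the most variable of the 10 genes among the controls, with a coefficient of variation of 40.2%, and control replicate 3 lay below every anti-CD73 library. The log2 fold change was -0.53 (SE 0.31), was -0.26 (SE 0.23) without control replicate 1 and reached -0.89 when control replicate 3 was left out. In the same comparison all 11 macrophage marker genes had a positive log2 fold change (median 0.70, Lyz2 1.02, Csf1r 0.79) and all 6 erythroid genes in the test a negative one (median -0.52). The erythroid median ran from -1.62 without control replicate 1 to 0.10 with another library left out, so its direction turned on single libraries, while the macrophage median ran from 0.51 to 1.04 and was highest without control replicate 1. The part of these cells in the Hmox1 values was not tested.

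Beyond these 10, pathway genes were taken from 7 lists with 87 distinct genes, of which 79 were tested. By limma 0 of the 79 passed an adjusted p of 0.05, while 3 lay higher and 14 lower at an unadjusted p under 0.05, against 8.69% and 6.82% of all tested genes. edgeR called 0, and DESeq2 called 1 higher (Hmox2), against 2.92% of all genes on that side, and 5 lower (Cul3, Glrx, Slc48a1, Nqo1 and Ugdh, the last named after its value was seen), against 2.01%. Without control replicate 1, limma called 18 lower and 5 higher, namely Bach1, Slc7a11, Hmox2, Cbr1 and, named after its value was seen, the iron exporter gene Slc40a1. Of all tested genes, that fit called 10.3% lower and 11.9% higher. The groups did not overlap in 16 that lay lower and 6 that lay higher, against 12.0% and 11.5% of all tested genes. The median log2 fold change of the 79 genes was -0.11. In the counts given for each list below, lower and higher mean the sign of the log2 fold change, whether or not the groups overlap. By sign, 49.5% of all tested genes lay lower.

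**Figure D4:**
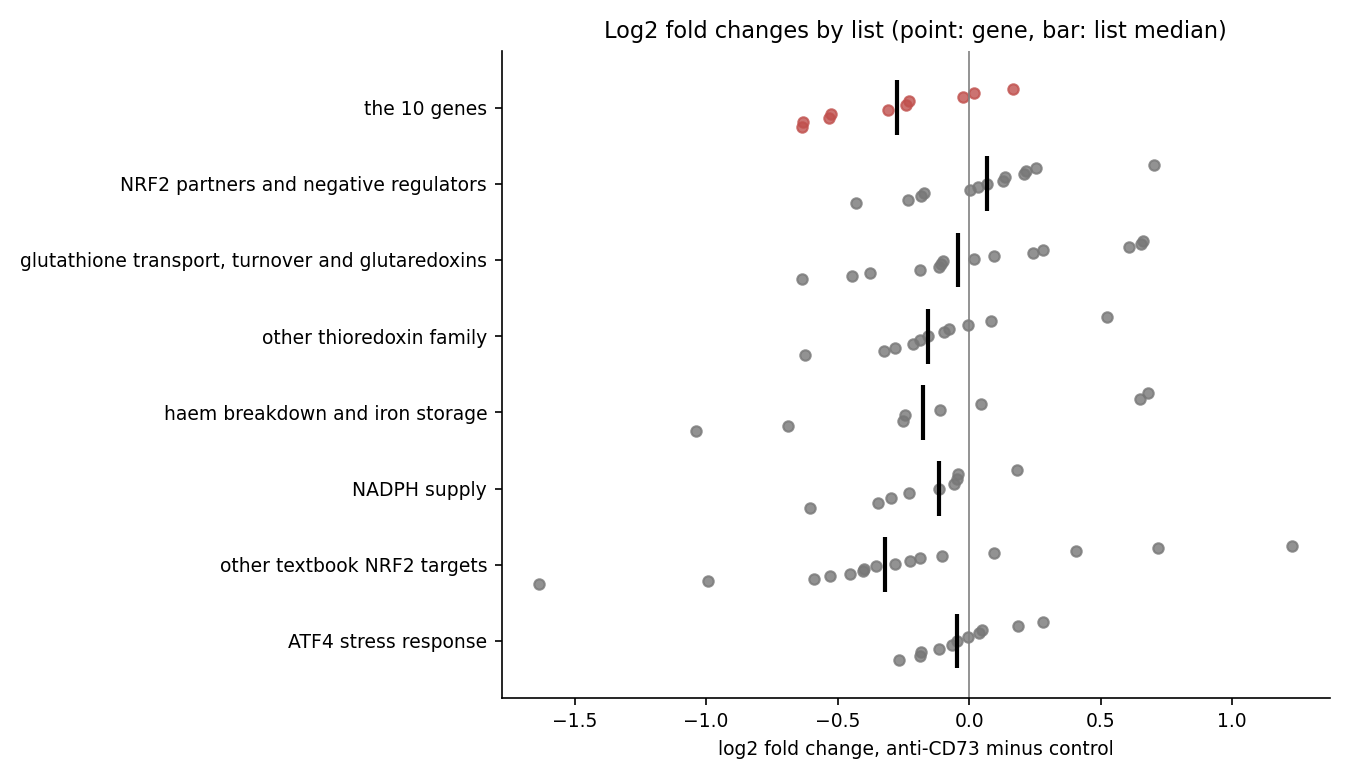
Log2 fold changes of anti-CD73 over control from all 6 libraries for the tested genes of each list, 1 point per gene, with black bars at list medians. Medians run from -0.32 in the other textbook NRF2 targets to 0.069 in the NRF2 partners and negative regulators, and Nqo1 is the lowest point of all (-1.63).

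Among the partners and negative regulators of NRF2, 4 of 13 tested genes lay lower and 9 higher (median 0.069), with 0 past the test. Cul3, the scaffold of the ligase that KEAP1 serves, had 2544, 2388 and 2546 normalized counts after anti-CD73, against 3634, 3259 and 3183 in the controls. Its groups were well apart, with a log2 fold change of -0.43 (SE 0.10). Sqstm1, which encodes the autophagy receptor p62 that can draw KEAP1 away from NRF2, had -0.23 (SE 0.11) without overlap. The repressor gene Bach1 had 2039, 2384 and 2002 normalized counts after anti-CD73, against 2336, 1747 and 1405 in the controls. Those groups overlapped through control replicate 1, with a log2 fold change of 0.25 (SE 0.19) that became 0.45 (adjusted p = 0.0259 by limma) without that library. The small MAF genes Mafg and Mafk had 0.21 (SE 0.12) and 0.069 (SE 0.098), Maff had 0.14 (SE 0.10), and the NRF2 relative Nfe2l1 had 0.22 (SE 0.12). Mafg had 0.13 without control replicate 1.

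In glutathione transport, turnover and the glutaredoxins, 7 of 14 genes lay on either side, with 0 past the test. The median of -0.041 turned to 0.0076 without control replicate 1 and ran from -0.11 to 0.011 over the libraries left out in turn. Glrx, a glutaredoxin that uses glutathione to reduce protein thiols, had 1174, 1083 and 1082 normalized counts after anti-CD73, against 2143, 1481 and 1633 in the controls. The groups did not overlap, with a log2 fold change of -0.64 (SE 0.15) close to those of Gclc and Gclm. Glrx2, its mitochondrial relative, had -0.38 (SE 0.14). Slc7a11, the cystine transporter that brings in the cysteine for glutathione, had 1121, 1311 and 1154 normalized counts after anti-CD73, against 2804, 764 and 439 in the controls. Its value rested on control replicate 1: the log2 fold change was 0.28 (SE 0.59), but 1.04 without that library (adjusted p = 0.00808 by limma), with every anti-CD73 library then above the controls, and -0.30 without control replicate 3. edgeR and DESeq2 on all 6 libraries gave it -0.13 and -0.16. Its partner chain Slc3a2 had 0.018 (SE 0.10), the exporter gene Abcc1 -0.10 (SE 0.11) and the glutamylcyclotransferase gene Ggct 0.24 (SE 0.24). Leaving out control replicate 1 gave 0.063 for Slc3a2, -0.048 for Abcc1 and 0.41 for Ggct.

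Other thioredoxin family genes lay mostly lower, 9 of 11 tested, with 0 past the test. The median of -0.16 was -0.090 without control replicate 1 and -0.072 without anti-CD73 replicate 3. The mitochondrial pair Txn2 (-0.076, SE 0.10) and Txnrd2 (-0.0052, SE 0.21) had log2 fold changes near 0. Txnrd3, a thioredoxin and glutathione reductase best known from testis, had 97.6, 104 and 95.6 normalized counts after anti-CD73, against 127, 169.8 and 166 in the controls. It had the lowest value of this list, -0.62 (SE 0.18), without overlap. Msrb1, a methionine sulfoxide reductase, lay higher without overlap at 0.52 (SE 0.17), and Txnip, whose product binds and inhibits thioredoxin, had -0.16 (SE 0.26). Txnrd2 had -0.22 and Txnip -0.011 without control replicate 1.

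In haem breakdown and iron storage, 5 of 8 genes lay lower, with 0 past the test, Slc48a1 lowest and Hmox2 highest. The median of -0.18 became -0.098 without control replicate 3 and nearly the same without control replicate 2. Slc48a1, a transporter that moves haem out of endolysosomes, had 1431, 1675 and 1393 normalized counts after anti-CD73, against 2568, 3695 and 3064 in the controls. This was a log2 fold change of -1.04 (SE 0.16) without overlap. Hmox2, the constitutive haem oxygenase, had 671, 710.4 and 537 normalized counts after anti-CD73, against 426, 371 and 392 in the controls. It lay higher without overlap at 0.68 (SE 0.15), on the other side of 0 from Hmox1. The biliverdin reductase genes Blvra and Blvrb had -0.11 (SE 0.13) and -0.24 (SE 0.31), and Blvrb had -0.64 (adjusted p = 0.00296 by limma) without control replicate 1. The ferritin genes Ftl1 and Fth1 had 0.046 (SE 0.14) and -0.25 (SE 0.12). Blvra had -0.033 and Ftl1 -0.0094 without control replicate 1. Blvrb is abundant in red cells, and control replicate 1 lay below the other controls both for Blvrb (-1.18 on the log2 scale) and for the erythroid markers (median -3.24). Their part in the Blvrb value was not tested. Ftl1, Fth1, Txn1 and Prdx1 have processed pseudogenes with which the counting could have split reads, so their levels are uncertain.

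NADPH supply genes lay lower in 8 of 9, with 0 past the test. The median of -0.11 was -0.27 without control replicate 1 and -0.057 without anti-CD73 replicate 3. In the fit without control replicate 1, limma called 4 of the 9 lower (G6pdx, Pgd, Tkt and, named after its value was seen, Pgls), against 10.3% of all tested genes. Pgd, which makes NADPH in the pentose phosphate pathway, had 2679.7, 2777 and 2776 normalized counts after anti-CD73, against 3064, 3674 and 3786 in the controls, with a log2 fold change of -0.35 (SE 0.12) and no overlap. G6pdx, at the entry to that pathway, had -0.30 (SE 0.14), and was called without control replicate 1 at -0.43 (adjusted p = 0.00633 by limma). Taldo1 (-0.042, SE 0.16) and Tkt (-0.058, SE 0.18) of its non-oxidative arm lay near 0, and the malic enzyme gene Me1 had -0.23 (SE 0.20). When control replicate 1 was left out, Taldo1 had -0.20, Tkt -0.27 and Me1 -0.084.

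The other textbook NRF2 targets had the lowest list median (-0.32), with 12 of 16 tested genes lower and 4 higher and 0 past the test. Nqo1, a quinone reductase widely used as a readout of NRF2, had 42.8, 46.6 and 57.6 normalized counts after anti-CD73, against 123, 209 and 139 in the controls. The groups were far apart, with a log2 fold change of -1.63 (SE 0.25), and of -1.79 (SE 0.24) without control replicate 1. Pir, which encodes pirin, had -0.59 (SE 0.23) without overlap, and the glutathione transferase gene Gstp1 had -0.28 (SE 0.12), also without overlap. Prdx1, a peroxiredoxin that thioredoxin recharges, had 3273, 3196 and 3058 normalized counts after anti-CD73, against 6178, 3212 and 3381 in the controls. Its log2 fold change of -0.36 (SE 0.24) rested on control replicate 1, without which it was -0.054 (SE 0.074).

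On the other side, the carbonyl reductase gene Cbr1 had 28.8, 23.3 and 25.7 normalized counts after anti-CD73, against 11.2, 11.4 and 8.98 in the controls. It lay higher without overlap at 1.23 (SE 0.30), from few reads. The epoxide hydrolase gene Ephx1 (-0.10, SE 0.43) and the transferase genes Gsta4 (-0.19, SE 0.31) and Gstm1 (0.72, SE 0.47) had few counts and overlapped. Ephx1 had -0.37 and Gstm1 1.17 without control replicate 1. Osgin1, which encodes an oxidative stress induced growth inhibitor, had -0.23 (SE 0.13). In the ATF4 stress response, which also drives cystine uptake, 7 of 11 genes lay lower and 4 higher, with 0 past the test and none without overlap. The median of -0.046 turned to 0.014 without control replicate 1 and was -0.16 without anti-CD73 replicate 3. Atf4 itself had -0.18 (SE 0.12), and Ddit3, which encodes the factor CHOP, had 0.19 (SE 0.23), which turned to -0.068 without control replicate 1.

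**Figure D5:**
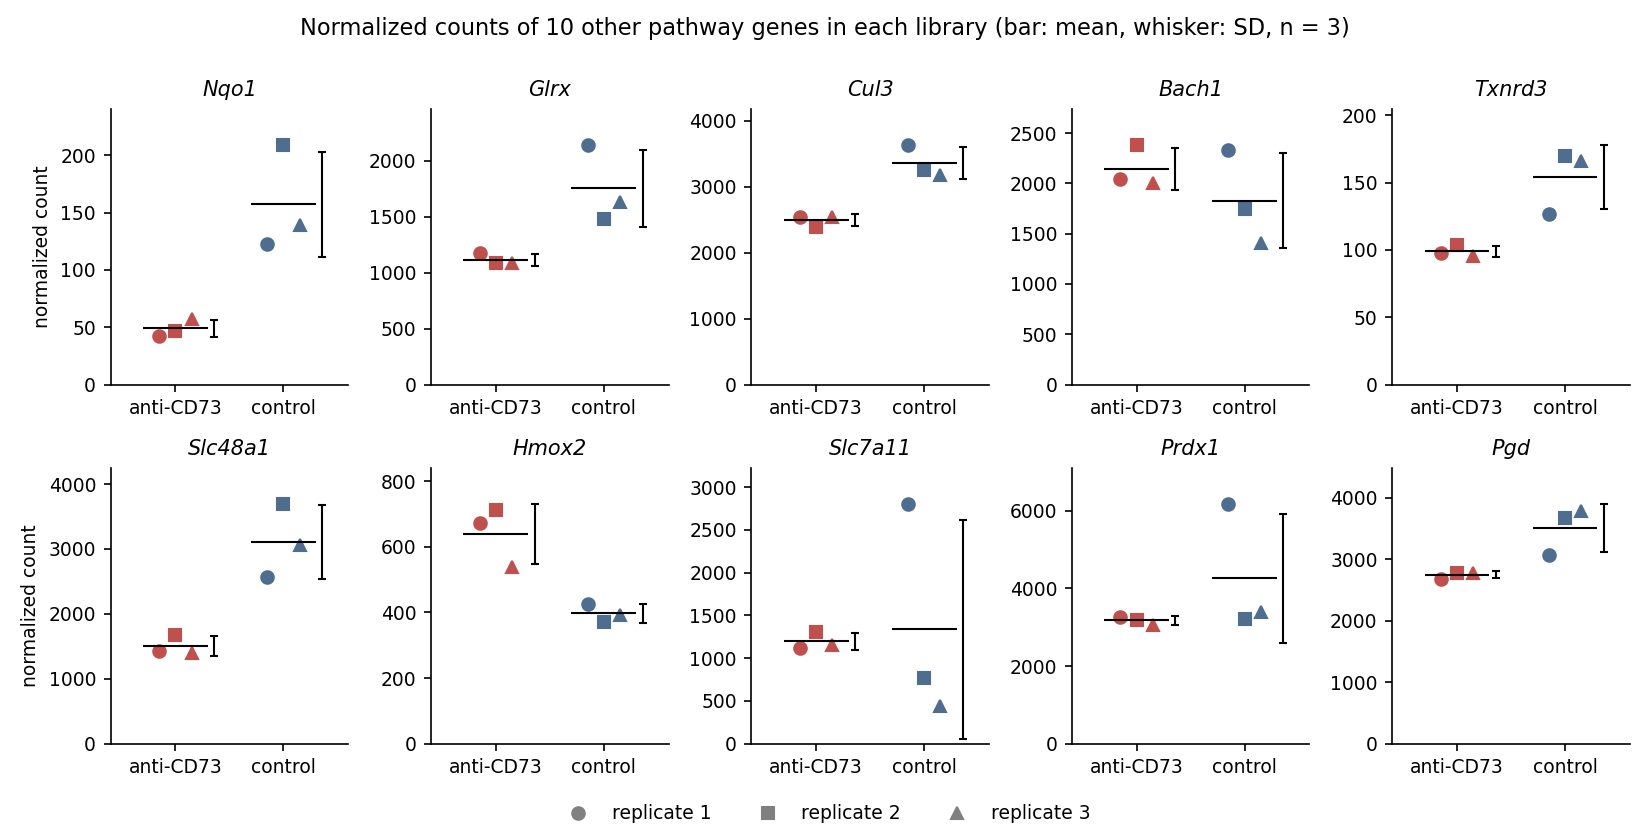
Normalized counts (y axis, from 0) of 10 pathway genes outside the first set in the 3 anti-CD73 and 3 control libraries; markers give the replicate, bars the mean and whiskers the SD (n = 3). Nqo1, Glrx, Cul3, Txnrd3, Slc48a1 and Pgd lie lower in every anti-CD73 library and Hmox2 higher, while control replicate 1 is far above the rest for Slc7a11 (2804) and Prdx1 (6178).

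Among the genes whose values across the 6 libraries were most like the averaged profile of Gclc and Gclm were Nek7 (Pearson r = 0.997), Esco1 (0.995) and Smad7 (0.995). Nek7, which encodes a mitotic kinase, had 797, 841 and 852 normalized counts after anti-CD73, against 1313, 1098 and 959 in the controls. As with the ligase genes, its controls were highest in replicate 1 and lowest in replicate 3. Among those most like Nfe2l2 were Wdr44 (0.996), Ube2d1 (0.994) and Pnrc1 (0.994). An r of at least 0.95 was reached by 174 genes for the ligase pair and by 138 for Nfe2l2, from profiles that share the same 6 libraries and the same contrast.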

How the data were processed

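The table deposited by the authors holds signal values, which per the labels are counts per gene after DESeq normalization. The submitters' processing notes list Bowtie 0.12.7 and mm10, with no role for either. Not given in the sources used here were the counter, the annotation and whether counting used strand, so reads of antisense or overlapping genes cannot be told apart. Columns were matched to samples by description, and groups and replicate numbers came from titles. Each value was a whole multiple of what 1 read is worth, and 100% of values came out whole within 0.01.

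Genes with a mean of at least 10 (12262) were tested with limma-trend (limma 3.58.1, R 4.3.3) as a two-sided test of log2(normalized count + 1). P-values were adjusted by the Benjamini-Hochberg method over all tested genes, at a threshold of 0.05. This scale understates changes of genes with few reads. edgeR 4.0.16 and DESeq2 1.42.0 were run on recovered reads as alternatives, and scripts were tested on simulated data. Other settings were a minimum mean of 50 or none, pseudocounts of 0.5 and 8, quantile normalization, TMM scaling, replicate blocks and robust empirical Bayes. Further ones were removal of erythroid genes with libraries rescaled to their total reads, and each library left out. edgeR and DESeq2 without control replicate 1 were added after seeing the data.

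The genes and lists were chosen with earlier results of these data known. A panel per list was named whatever its values, plus up to 2 genes per list with the largest log2 fold change without overlap, plus the 4 genes most like each profile by Pearson r, leaving out predicted genes and pseudogenes; 1 gene of each profile's 4 is not reported here. Cell types were checked with marker lists for T cells, macrophages, neutrophils, red cells, epithelium, fibroblasts and dendritic cells. Coordinates and sequences are from RefSeq (GRCm38.p6, the assembly of mm10), matched by symbol. No genome was used here.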

Additional observations from a re-analysis of the deposited data

How the results depend on the processing

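The count of genes called depended on the tool and on control replicate 1. limma called 0 genes, DESeq2 592 genes with 3 of the 10 genes described. With 1 library left out, limma called between 0 and 2724 genes and between 0 and 3 of the 10, with 0 genes in every case except without control replicate 1. Without that library edgeR called 2703 genes and DESeq2 2679, each with 3 of the 10; both were chosen after seeing the data. The median log2 fold change of the 10 genes was -0.21 with quantile normalization and lay between -0.34 and -0.25 with 1 library left out. It was -0.21 with erythroid genes left out, a setting that also scaled libraries to total reads in place of DESeq normalization. There the median of all tested genes moved to 0.065 from 0.0039, and the removal and the rescaling were not told apart. Among the 10, only Keap1 and Gsr changed sign under the settings tried. Keap1 had -0.018 with edgeR, -0.029 with DESeq2, -0.38 with the replicate block by description number and, without control replicate 1, -0.27 with edgeR and -0.27 with DESeq2, and lay between -0.29 and 0.20 with 1 library left out. Gsr had 0.061 with quantile normalization, under which the median of all tested genes was -0.029. It had 0.037 in the rescaled setting without erythroid genes, a sign change no larger than the shift of all genes in that setting. With 1 library left out Gsr lay between -0.077 and 0.020. The causes were not tested.

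Of the other named genes, quantile normalization turned Fth1 (0.037), Taldo1 (0.026) and Tkt (0.022). The rescaled setting without erythroid genes, with its shift of all genes, gave Taldo1 0.020, Tkt 0.0029 and Txnrd2 0.056. edgeR and DESeq2 turned Slc7a11 (-0.13 and -0.16). Without control replicate 1 edgeR turned Ddit3 (-0.056) and Txnip (0.050), as did DESeq2 (-0.055 for Ddit3 and 0.053 for Txnip). With 1 library left out, log2 fold changes ranged from -0.068 to 0.37 for Ddit3, from -0.40 to 0.26 for Ephx1, from -0.046 to 0.17 for Ftl1, from -0.017 to 0.063 for Slc3a2 and from -0.30 to 1.04 for Slc7a11. They ranged from -0.20 to 0.051 for Taldo1, from -0.27 to 0.060 for Tkt, from -0.36 to 0.11 for Txnip and from -0.22 to 0.11 for Txnrd2.

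A replicate block by title number called 0 genes, and a replicate block by description number called 1780 genes with 2 of the 10 (Gclm and Txn1) and turned Ftl1 (-0.10). Control replicate 1 and anti-CD73 replicate 2 are alone in their description numbers, so that block also takes both out of the contrast. The contrast then rests on description numbers 2 and 4 alone, with little left to estimate the spread. Its count of calls cannot be read like those of the other fits. The correlations of deviations between libraries of the same title number were 0.19, -0.096 and 0.26, and those of the same description number -0.16 and 0.26. As not every pair was over 0.1, the numbers were not taken to pair the samples. Pairs of libraries that share neither number ran from -0.27 to 0.19, so these correlations cannot show whether the samples were paired.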

Other observations

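Counts of other glutathione genes per Gclc count, chosen after their values were seen, separated the groups. Gss per Gclc was 0.240, 0.232 and 0.203 in the anti-CD73 libraries, against 0.10, 0.137 and 0.156 in the controls. Gsr per Gclc was 3.27, 3.38 and 3.02 in the anti-CD73 libraries, against 1.69, 2.27 and 2.44 in the controls. Both ratios share the Gclc counts and are therefore not independent of each other or of the Gclc values. For Gss the separation follows from the counts above and adds nothing, as every anti-CD73 library lay higher for Gss and lower for Gclc.

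Slc40a1, which encodes the iron exporter ferroportin and was also chosen after its values were seen, had 617, 851 and 477 normalized counts after anti-CD73, against 1316, 242 and 203 in the controls. As for Slc7a11, control replicate 1 was the highest of the 6 libraries and the other controls were the lowest. The log2 fold change was 0.65 (SE 0.66) by limma, 0.17 by edgeR and 0.15 by DESeq2. With 1 library left out it ran from 0.16 to 1.5, the highest without control replicate 1. Against the mean of the other controls, control replicate 1 also had positive medians for T cell, macrophage, dendritic and fibroblast markers (2.49, 0.76, 1.57 and 0.20 on the log2 scale). Its fibroblast share of the reads lay between theirs. For neutrophil, erythroid and epithelial markers the medians were negative. The part of these cells in the Slc40a1 and Slc7a11 values was not tested.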
